A study of Mus musculus with 88 samples.

Results

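Nucleus accumbens tissue from female mice that carried 2 kinds of control vector was compared across all expressed genes: vectors that work in any infected cell and vectors that work only where Cre recombinase is present. Every library of this comparison received the non-targeted guide. The Cre-independent group is the 8 libraries labelled F_D1-D2-control, and the Cre-dependent set is the 8 labelled F_D1-control and the 8 labelled F_D2-control, so 24 of the 87 libraries with a count column were used. All mice were backcrossed to C57BL/6. In all 3 groups a pair of herpes simplex vectors delivered a nuclease-dead Cas9 joined to the constitutively active CREB mutant CREB(S133D), and a guide RNA with no target (gNT). Tissue was taken 6 days after surgery, and all 24 libraries are from sequencing batch 1. The Cre-independent mice are labelled D1-Cre, as are the F_D1-control mice, while the F_D2-control mice are labelled D2-Cre. The comparison with F_D1-control therefore holds the Cre line fixed, and the comparison with F_D2-control changes both line and vector. The labels do not say that each library is a separate animal, so p-values measure the spread between these libraries.

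Herpes simplex vectors infect neurons efficiently and express their cargo for days, and viral particles and needle injury can both induce interferons in brain tissue. Interferons switch on antiviral genes such as the Ifit family, and they raise the MHC genes that present peptides to T cells. The accumbens consists mostly of medium spiny neurons, which carry either the D1 or the D2 dopamine receptor, and the D1-Cre and D2-Cre lines direct Cre to one or the other class. Cells and RNA per cell cannot be told apart in such tissue: a lower transcript level may be fewer cells of a type or less RNA in each.

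No gene passed edgeR's quasi-likelihood test at an adjusted p of 0.05 when the 8 Cre-independent libraries were set against the 16 Cre-dependent ones, out of 21545 genes tested (0.00%, lowest adjusted p 0.117). At an unadjusted p under 0.05 there were 1255 genes (5.83%), of which 557 (2.59%) were higher and 698 (3.24%) lower with Cre-independent vectors. DESeq2's Wald test called 8 genes and limma-voom with quality weights called 2. Within D1-Cre mice, where only the vector's Cre dependence differs in the labels, edgeR again called 0 genes (lowest adjusted p 0.568, 673 at an unadjusted p under 0.05), DESeq2 called 1 and limma-voom 0. The median log2 fold change over all genes was -0.0018 against both Cre-dependent groups and 0.0016 within D1-Cre mice.

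Neither Fosb nor Creb1 showed a difference that passed. Fosb, the gene that the targeting guide of the study addresses, lay at 4.79, 7.46 and 10.1 CPM (counts scaled to library size; lowest, median and highest library) with Cre-independent vectors, at 5.11, 8.17 and 10.6 in F_D1-control and at 6.08, 8.35 and 13 in F_D2-control (log2 fold change -0.17, SE 0.15, edgeR adjusted p 0.856). The groups overlapped over most of their range. Creb1, which encodes the CREB protein, averaged 73.1 ± 9.28 CPM (SD, n = 8) with Cre-independent vectors and 76.0 ± 6.31 CPM (SD, n = 16) with Cre-dependent vectors (log2 fold change -0.06, SE 0.07, edgeR adjusted p 0.886). Reads of the mouse's own Creb1 and any of the delivered CREB(S133D) were not separated, so expression of the vectors was not measured.

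The levels of immune transcripts split the Cre-independent group: 4 libraries lay far below the Cre-dependent ones and the other 4 did not. Ifit3, an antiviral protein induced by interferon, lay at 26.5, 20.9, 21.0 and 8.85 CPM in libraries 19598, 19599, 19750 and 19754 (the numbers are those in the library titles). In libraries 16760, 19719, 19727 and 19762 it lay at 309.8, 304.9, 388 and 254 CPM. The 16 Cre-dependent libraries spanned 92.4 to 356 CPM, with medians of 222 in F_D1-control and 199 in F_D2-control. Reads of Ifit3 may be shared with its close copy Ifit3b, so its own level is uncertain. No Cre-dependent library was as low as the first 4. The others lay above both medians, and 1 of them, 19727, passed the top of the Cre-dependent range. The means of the groups hide this: Ifit3 had a log2 fold change of -0.27 with an SE of 0.50 (edgeR adjusted p 0.925).

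**Figure D1:**
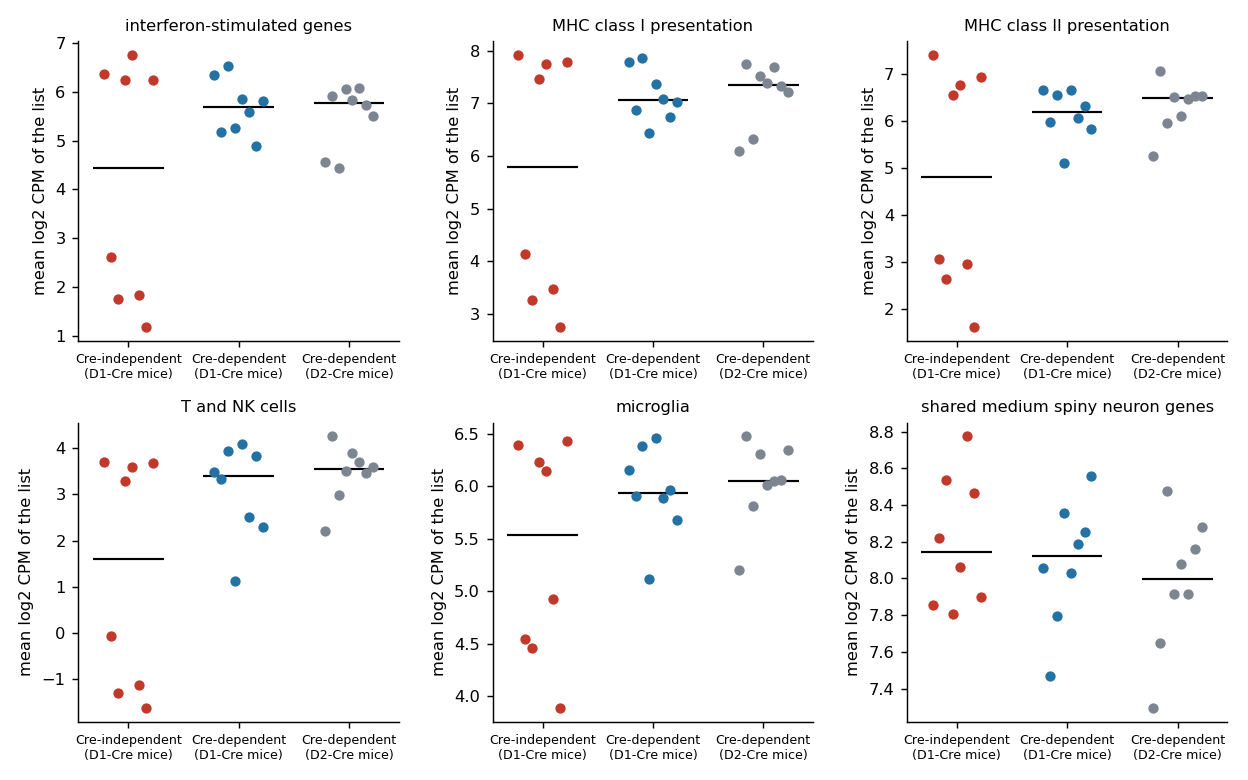
Mean log2 CPM of the genes in 6 lists, 1 point per library, for the Cre-independent group (red) and the Cre-dependent D1-Cre (blue) and D2-Cre (grey) groups, with black lines at group medians. In the immune lists and in microglia 4 Cre-independent libraries sit below all 16 Cre-dependent ones, while the medium spiny neuron list overlaps between groups.

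The same 4 libraries were low across the interferon list. Over the 39 interferon-stimulated genes tested, mean log2 CPM was 2.62, 1.75, 1.84 and 1.19 in libraries 19598, 19599, 19750 and 19754, and between 6.24 and 6.75 in the other 4. The Cre-dependent libraries lay between 4.44 and 6.52. Ifit1, an antiviral protein that binds foreign RNA, lay at 7.51, 3.86, 5.14 and 2.26 CPM in the low libraries and between 114 and 246 CPM in the others, against 27.3 to 173 CPM with Cre-dependent vectors. Summed over the list, expression ran from 217 to 6285 CPM among Cre-independent libraries, from 2000 to 5454 in F_D1-control and from 1571 to 4068 in F_D2-control.

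Many interferon-stimulated genes carry a short element in the promoter to which interferon regulatory factors bind. Promoters of 27 of the 39 listed genes were found in RefSeq (build GRCm38.p6, 250 bases before to 50 after the start), and 15 of them (55.6%) held TTTC, any 2 bases and TTTC again, on either strand. Among all tested genes with a promoter there, 518 of 13237 (3.91%) held it. The 3 listed genes whose spread between libraries had the smallest p among those with the letters are shown here, with every match on either strand in capitals, so that a match on the opposite strand reads as GAAA, 2 bases and GAAA. Bst2 encodes tetherin, which holds budding virions on the cell surface, and Oas3 and Oas1a encode enzymes that sense double-stranded RNA.
Bst2 promoter, chr8:71537423-71537722, minus strand: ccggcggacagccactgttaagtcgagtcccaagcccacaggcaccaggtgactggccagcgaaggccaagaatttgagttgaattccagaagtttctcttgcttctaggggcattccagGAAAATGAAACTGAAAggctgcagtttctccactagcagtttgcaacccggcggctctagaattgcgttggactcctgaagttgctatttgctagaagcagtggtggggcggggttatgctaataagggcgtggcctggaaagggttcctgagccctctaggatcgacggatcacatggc
Oas3 promoter, chr5:120777610-120777909, minus strand: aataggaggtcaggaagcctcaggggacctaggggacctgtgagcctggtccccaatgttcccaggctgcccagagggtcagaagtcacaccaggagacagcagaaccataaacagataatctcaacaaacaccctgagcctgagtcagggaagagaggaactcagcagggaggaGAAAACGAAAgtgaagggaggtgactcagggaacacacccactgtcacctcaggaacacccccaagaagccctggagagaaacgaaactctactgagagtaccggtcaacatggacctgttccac
Oas1a promoter, chr5:120907476-120907775, minus strand: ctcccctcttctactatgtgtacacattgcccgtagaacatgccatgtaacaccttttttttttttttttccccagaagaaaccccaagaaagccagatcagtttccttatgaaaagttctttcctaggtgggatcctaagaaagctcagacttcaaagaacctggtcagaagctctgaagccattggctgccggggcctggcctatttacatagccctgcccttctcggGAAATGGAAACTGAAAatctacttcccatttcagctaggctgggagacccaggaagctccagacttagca
Bst2 lay at 16.5, 3.49, 4.83 and 2.23 CPM in libraries 19598, 19599, 19750 and 19754, between 158 and 196 CPM in the other Cre-independent libraries and between 60.5 and 206 CPM in the 16 Cre-dependent ones. Oas3 lay at 1.00, 0.521, 0.508 and 0.314 CPM in those 4 libraries, between 36.9 and 103 CPM in the others and between 6.66 and 66.9 CPM with Cre-dependent vectors. Oas1a followed the same order, with 0.871 to 3.84 CPM in the low libraries, 60.8 to 82.4 CPM in the others and 15.6 to 83.8 CPM with Cre-dependent vectors. The CREB element TGACGTCA was in 0 of the 27 interferon promoters and in 426 of 13237 (3.22%) of all. A match of letters is a description and shows no binding.

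The difference in spread was then tested for every gene, with limma on each library's absolute deviation from its group's mean log2 CPM. The test was chosen after the split had been seen, and genes that follow the same split are not independent of each other. Of 21545 genes, 2504 (11.6%) were wider among Cre-independent libraries and 18 (0.0835%) narrower at an adjusted p of 0.05. In 2064 of the 2504 (82.4%) the 4 lowest Cre-independent libraries were 19598, 19599, 19750 and 19754, and in 255 (10.2%) the same 4 were the highest. The count of wider genes fell to 18 when those 4 libraries, picked by this outcome, were left out, and was 1648 against F_D1-control alone and 1950 against F_D2-control alone.

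**Figure D2:**
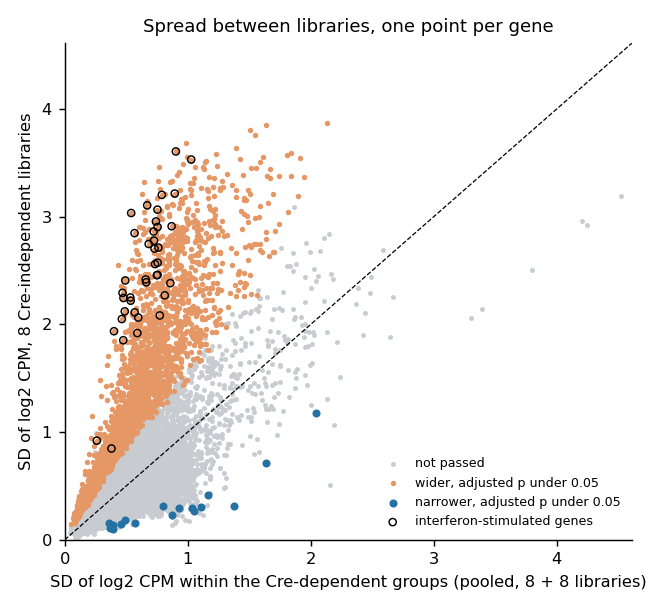
Standard deviation of log2 CPM between libraries for each of 21545 genes, with the pooled value of the Cre-dependent groups on the x axis and the 8 Cre-independent libraries on the y axis. The 2504 genes of wider spread (orange) lie above the dashed line of equality, with all 39 interferon-stimulated genes (black rings) among them, and the 18 narrower genes (blue) lie below it.

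Genes of antigen presentation were among those with the smallest p-values for spread. The test was chosen after the split was seen, so its p-values describe that split and are no further support for it. All 20 MHC class I presentation genes, all 11 of MHC class II presentation and all 19 interferon gamma GTPases were wider, as were the 39 interferon-stimulated genes. H2-Eb1, a chain of the class II molecule, had an SD of 3.21 log2 units with Cre-independent vectors and of 0.66 and 0.60 in F_D1-control and F_D2-control (limma adjusted p 1.74e-10). Its level ran from 2.82 to 14.2 CPM in the 4 low libraries and from 312 to 660 in the others. B2m, the light chain of class I, lay at 55.6 to 144 CPM in the low libraries and at 1180 to 1580 CPM in the others, against 525 to 1904 CPM with Cre-dependent vectors (SD 2.10 against 0.54 and 0.55, limma adjusted p 8.97e-09). Cd74, the class II invariant chain, was highest of all 24 libraries in library 16760, at 1732 CPM, and lowest in library 19754, at 6.97 CPM. The guanylate-binding protein gene Gbp2 lay between 6.76 and 32.3 CPM in the low libraries and between 802 and 1081 CPM in the others.

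Transcripts of immune cells followed the same 4 libraries. Of 28 T and NK cell genes 27 were wider, of 17 chemokine genes 14, of 15 complement genes 13, of 13 genes of infiltrating monocytes and macrophages 11 and of 12 B cell and plasma cell genes 10, against 11.6% of all genes. Cd3e, a chain of the T cell receptor complex (named after its values were seen), lay at 0.162, 0.0919, 0.0847 and 0.0697 CPM in libraries 19598, 19599, 19750 and 19754, which rests on 6, 3, 3 and 2 counts. It reached 3.62 to 8.99 CPM in the other Cre-independent libraries and 0.419 to 12.8 CPM with Cre-dependent vectors. Gzmb, the cytotoxic protease granzyme B, lay at 0.766 to 4.22 CPM in those 4 and at 46.6 to 96.4 CPM in the others (limma adjusted p for spread 2.34e-09). Summed over the T and NK list the levels ran from 29.7 to 517 CPM with Cre-independent vectors, from 116 to 687 in F_D1-control and from 192 to 705 in F_D2-control. Cxcl10, an interferon-induced chemokine that draws T cells, spanned 1.22 to 8.10 CPM in the low libraries and 282 to 417 CPM in the others.

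Glial genes were split in part, and in the neuronal and myelin lists no or few genes were wider. Of 21 reactive astrocyte genes 18 were wider, of 25 microglia genes 16 and of 22 proliferation genes 18. Gfap, the astrocyte intermediate filament, lay at 179, 184, 387 and 48.8 CPM in libraries 19598, 19599, 19750 and 19754 and at 893 to 1138 CPM in the others. Top2a, a topoisomerase of dividing cells, lay at 5.08 to 19.4 CPM in the low libraries and at 67.5 to 132 CPM in the others. None of the 16 homeostatic astrocyte genes, 16 oligodendrocyte genes, 20 shared medium spiny neuron genes, 10 D1 and 8 D2 medium spiny neuron genes or 20 synaptic genes was wider. Such genes could still differ between the low libraries and the others. Glul lay at 1304 to 1539 CPM in the low libraries and at 654 to 848 CPM in the others, and Arpp21 at 1001 to 1357 and 597 to 815 CPM. Mbp (931 to 1616 and 795 to 1444 CPM) and Ppp1r1b (416 to 752 and 339 to 440 CPM) overlapped. Of 22 glutamate and GABA receptor genes 2 (9.09%) were wider and of 30 activity-induced genes 4 (13.3%), near the 11.6% of all genes. Drd1, the D1 dopamine receptor, was present in every library, at 350 to 462 CPM in the 4 low libraries, at 200 to 293 CPM in the other Cre-independent ones and at 174 to 425 CPM with Cre-dependent vectors.

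Fcrls, a gene of homeostatic microglia (named after its values were seen), ran the other way. It lay at 49.8, 50.9, 64.2 and 42.5 CPM in libraries 19598, 19599, 19750 and 19754 and at 14.8 to 28.8 CPM in the other 4, against 10.6 to 38.4 CPM with Cre-dependent vectors. Each of the 4 was above all 16 Cre-dependent libraries. Over the group, Fcrls had a log2 fold change of 0.98 (SE 0.25, edgeR adjusted p 0.673).

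Depth did not set these libraries apart, whereas the share of mitochondrial reads was uneven. Total counts were 33143993, 34982499, 37533949 and 29368389 in libraries 19598, 19599, 19750 and 19754, within the 15844472 to 41546449 of all 24. The mitochondrial share of counts was 5.35%, 19.8%, 8.53% and 12.1% there, 2.54% to 7.58% in the other Cre-independent libraries and 2.43% to 12.8% with Cre-dependent vectors, and its part in the immune split was not tested. Between the vector kinds, total counts, the share of the 10 most abundant genes, the mitochondrial share and the share of small RNA genes did not pass an exact permutation test of 735471 splits (two-sided, adjusted p 0.521, 0.665, 0.521 and 0.521 over the 4 measures). Library 17457 of F_D1-control stood apart, with 79.1% of counts in its 10 most abundant genes and 26.8% in small RNA genes. The Y-linked gene Ddx3y, which these female mice lack, gave 7.95 CPM in library 19598, 5.90 in 19762 and 5.50 in 17457. These values rest on 294, 155 and 22 counts. Others of the 24 were at most at 0.571 CPM, and the 37 male libraries at 53 to 109 CPM. The 22 counts of 17457 are near the 18 of library 17906, and its CPM is raised by a TMM factor of 0.252. Leaving out 19598 and 19762 left 2746 genes wider and 0 genes called in the comparison of means.

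The genes that did pass a test of means separated F_D2-control from both D1-Cre groups. Against F_D2-control, 4 genes (0.0186%) passed with Cre-independent vectors: 2 were higher (0.00928%), Sfxn1 and Gm35021, and 2 lower (0.00928%), Ttc12 and Dnah6. F_D1-control against F_D2-control, which shares the D2-Cre libraries, called the same 4 (0.0186%; 0.00928% in each direction). Sfxn1, a mitochondrial serine transporter, lay at 111, 139 and 184 CPM (lowest, median, highest) with Cre-independent vectors, at 53.1, 157 and 201 in F_D1-control and at 44.8, 53.7 and 62.1 in F_D2-control. All 8 Cre-independent libraries were above all 8 of F_D2-control (log2 fold change 1.41, SE 0.17, edgeR adjusted p 0.000194). Between the D1-Cre groups its log2 fold change was -0.01 (SE 0.17, edgeR adjusted p 1.00). Library 17719, labelled F_D1-control, was at 53.1 CPM, within the F_D2-control range, and the next lowest of its group was at 119.

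Ttc12, a ciliary assembly factor, lay at 1.57, 3.64 and 5.6 CPM with Cre-independent vectors, at 3.86, 4.63 and 6.00 in F_D1-control and at 8.19, 12.3 and 15.8 in F_D2-control (log2 fold change against F_D2-control -1.61, SE 0.19, edgeR adjusted p 0.000194). Dnah6, an axonemal dynein heavy chain, was at 0.662 to 3.16 CPM with Cre-independent vectors and at 7.30 to 9.91 CPM in F_D2-control except library 17909, which was at 1.63 (log2 fold change -2.36, SE 0.34, edgeR adjusted p 0.00155). Gm35021, a noncoding transcript, had only 1 to 5 counts in each F_D2-control library and 28 to 87 counts in 7 of 8 Cre-independent libraries, with 2 counts in library 19754 (log2 fold change 3.77, SE 0.53, edgeR adjusted p 0.00155). In mm10, Sfxn1 (chr13:54071869-54108342) starts 16.2 kb from Drd1 and Ttc12 (chr9:49436963-49486225) ends 28.8 kb from Drd2, the dopamine receptor genes after which the Cre lines are named. Dnah6 is at chr6:73017606-73221651 and Gm35021 at chr8:35724175-35757517.

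**Figure D3:**
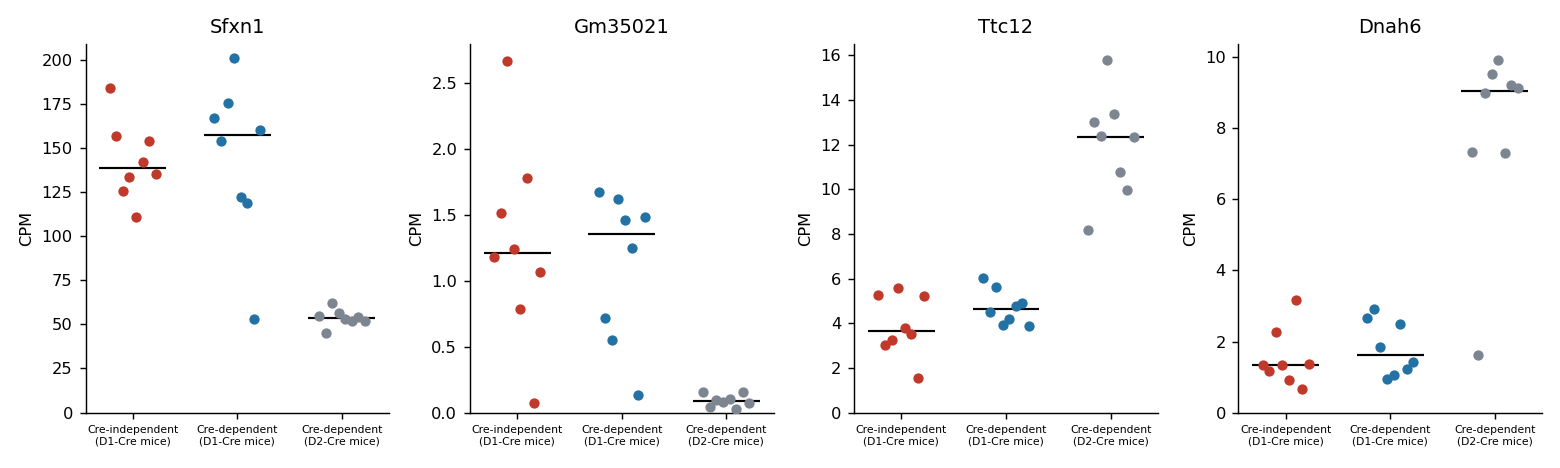
CPM of Sfxn1, Gm35021, Ttc12 and Dnah6 in the 24 libraries, 1 point per library, with black lines at group medians. Both D1-Cre groups differ from the D2-Cre group in each gene, with library 17719 of F_D1-control at 53.1 CPM of Sfxn1 and library 17909 of F_D2-control at 1.63 CPM of Dnah6.

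The same genes were read in the 26 other female libraries, which carried the Fosb guide and entered no test above. Sfxn1 spanned 97.6 to 139 CPM in 18 libraries labelled D1-Cre, 12 of which had Cre-independent vectors, and 37.8 to 56.9 CPM in 8 labelled D2-Cre (exact permutation test, two-sided, adjusted p over the 4 genes 1.28e-06). Ttc12 spanned 2.10 to 5.80 CPM and 8.47 to 14.3 CPM in those libraries (exact permutation test, adjusted p 1.28e-06). Neither gene's lines overlapped. Dnah6 had medians of 1.45 and 5.19 CPM (exact permutation test, adjusted p 6.83e-06) and Gm35021 of 1.03 and 0.072 CPM (exact permutation test, adjusted p 0.000781), with overlap in both.

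Beside the line-associated genes, several genes with small p between vector kinds were myelin genes, and none passed. Mobp, a structural protein of myelin, lay at 403, 512 and 603 CPM (lowest, median, highest) with Cre-independent vectors, at 251, 348 and 466 in F_D1-control and at 155, 282 and 405 in F_D2-control. Its lowest Cre-independent library was below the highest of each Cre-dependent group, and most others were above (log2 fold change 0.66, SE 0.14, edgeR adjusted p 0.309; DESeq2 called it). The myelin genes Bcas1 (0.54, SE 0.13), Mbp (0.46, SE 0.17) and Sept4 (0.40, SE 0.10) had log2 fold changes in the same direction, with edgeR adjusted p from 0.495 to 0.81. Of 16 oligodendrocyte genes 15 had positive fold changes, and the list's median on the log2 scale was 0.29 beside -0.0018 for all genes. The median was 0.20 against F_D1-control and 0.35 against F_D2-control. Gm37111, an unnamed transcript 1.08 kb past the end of Mobp, had the smallest p of all genes (named after its values were seen). It was at 1.78 to 2.82 CPM in libraries 19598, 19599, 19750 and 19754, at 0.794 to 1.17 CPM in the other Cre-independent ones and at 0.250 to 1.14 CPM with Cre-dependent vectors (log2 fold change 1.26, SE 0.22, edgeR adjusted p 0.117), and DESeq2 and limma-voom called it.

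Most neuronal lists lay slightly above 0, some lay at or below it, and ribosomal proteins lay below. All 20 shared medium spiny neuron genes had positive fold changes, with a median of 0.20, and none had an unadjusted p under 0.05. Penk, the enkephalin precursor of D2 neurons, had a log2 fold change of 0.22 (SE 0.18, edgeR adjusted p 0.839). The 14 genes of septum and pallidum had a median of -0.24 with 3 above 0, and the 30 activity-induced genes a median of -0.04 with 14 above 0. The 8 cholinergic interneuron genes had a median of 0.02, and of -0.20 against F_D1-control. Of 26 cytosolic ribosomal protein genes 25 were below 0, with a median of -0.22 beside -0.0018 for all genes, and 8 were lower at an unadjusted p under 0.05, against 3.24% of all genes. Rplp1, 1 of the 8, had -0.25 (SE 0.12, edgeR adjusted p 0.824). With 3 surrogate variables in the model, Penk, Drd1, Rplp1 and 25 other genes named by rule changed sign. Changes of sign smaller than the SE were not counted for genes with an unadjusted p of 0.05 or more. Cortical glutamatergic genes, markers of tissue beside the accumbens, had a median of 0.71 against F_D1-control and 0.01 against F_D2-control. Slc17a7, the cortical vesicular glutamate transporter, averaged 127 ± 134 CPM (SD, n = 8) with Cre-independent vectors and 85.8 ± 169 CPM (SD, n = 16) with Cre-dependent ones.

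Histone genes had lower levels with Cre-independent vectors across most of the family, with no member past the adjusted test. This list was made after values were seen: the 69 tested genes whose symbols begin with Hist1h to Hist4h, which encode the replication-dependent histones whose messages mostly lack poly(A) tails. Of the 69, 68 had negative fold changes and 62 an unadjusted p under 0.05, all lower, beside 3.24% of all genes. The 69 genes are not independent of each other, so these counts are not separate results. The median log2 fold change was -0.71, with -0.57 against F_D1-control and -0.92 against F_D2-control (lowest edgeR adjusted p 0.495). Hist1h2ac lay at 6.80, 9.58 and 13 CPM (lowest, median, highest) with Cre-independent vectors, at 8.22, 15.6 and 20.1 in F_D1-control and at 9.45, 17.7 and 24.2 in F_D2-control. Hist1h3d had a log2 fold change of -0.86 (SE 0.20, edgeR adjusted p 0.552). F_D1-control was itself below F_D2-control, with a median of -0.33 over the family and 1 member at an unadjusted p under 0.05.

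**Figure D4:**
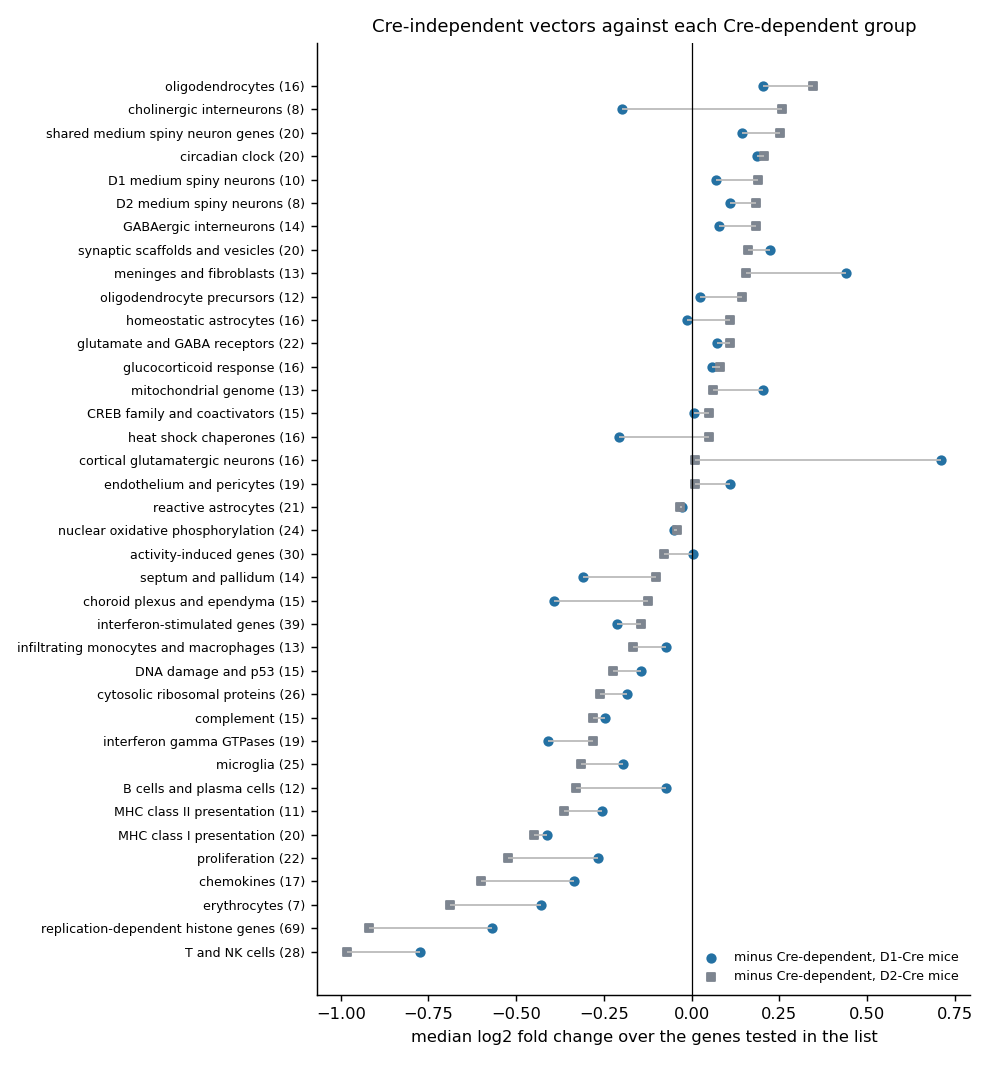
Median log2 fold change of Cre-independent libraries against F_D1-control (blue circles) and F_D2-control (grey squares) for 38 gene lists, with the number of genes tested in parentheses. T and NK cell genes and histone genes lie lowest against both, and oligodendrocyte genes have medians of 0.20 and 0.35.

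Library numbers move with the vector kind. Of the Cre-independent libraries 7 have title numbers from 19598 to 19762 and 1 is 16760, while 7 of the F_D1-control libraries run from 16583 to 17719 and 1 is 19755. The labels do not say what the numbers mean. Mean log2 CPM of the histone list was 3.29 in library 19755, the lowest of F_D1-control, whose other libraries lay at 3.86 to 4.82. It was 4.05 in library 16760, above all other Cre-independent libraries except 19762 at 4.36. Over the 69 histone genes, library 19755 was nearer to the Cre-independent mean in 67 and library 16760 in 21, each mean computed without it. Library 17910 of F_D2-control was nearer to the Cre-independent mean in 66 genes and Cre-independent library 19762 in 5. The histone list was made after the values of these libraries were seen, and its genes are not independent of each other. Interferon levels were uneven among high numbers: of the 7 Cre-independent libraries with such numbers, 4 were low and 3 high. Library 19755 was at 5.81. The 4 low libraries, 19598, 19599, 19750 and 19754, all have high numbers. Number and vector kind move together, so their parts in the split cannot be told apart.

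**Figure D5:**
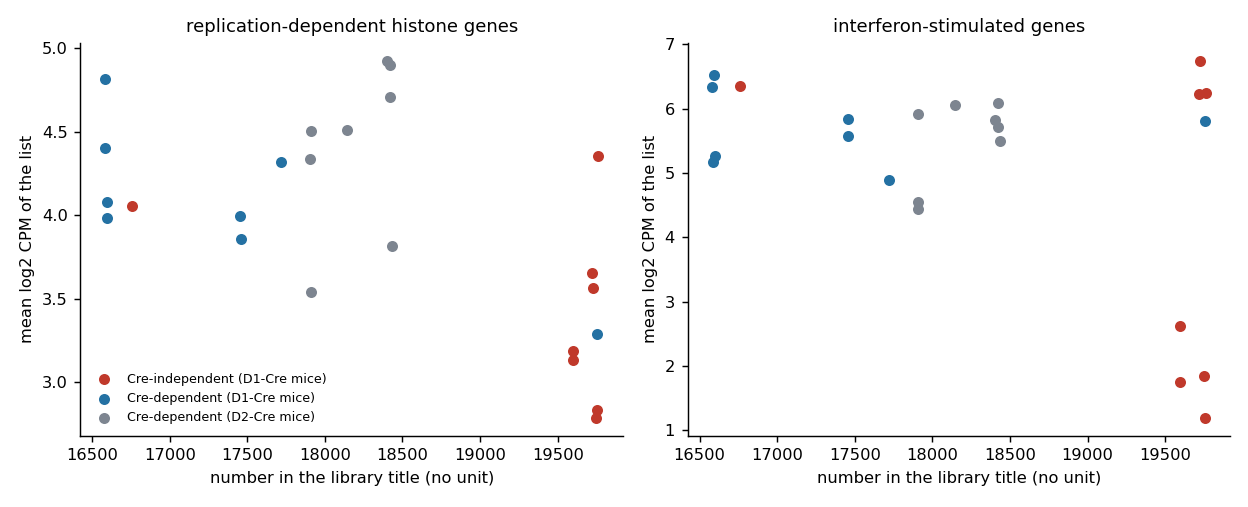
Mean log2 CPM of the histone list (left) and of the interferon list (right) against the number in each library's title. On the left F_D1-control library 19755 lies at 3.29 among Cre-independent libraries of like number, and on the right 4 of the Cre-independent libraries with numbers from 19598 to 19762 lie between 1.19 and 2.62.

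The clock genes Dbp and Ciart were highest in the libraries with low interferon genes. Of 20 circadian clock genes 18 had positive fold changes, with a median of 0.19 beside -0.0018 for all genes. At an unadjusted p under 0.05 there were 5 higher and 1 lower, where 2.59% of all genes were higher and 3.24% lower, and none passed. Of the 20, 3 (15.0%) had a wider spread, near the 11.6% of all genes. Mean log2 CPM of the list was 5.29 to 5.60 in those 4 libraries and 4.92 to 5.17 in the other 4, against 4.93 to 5.34 with Cre-dependent vectors, so that the ranges overlap. Dbp, a clock output factor that oscillates strongly over the day, lay at 88.8, 115, 122 and 96.5 CPM in libraries 19598, 19599, 19750 and 19754 and at 39.6 to 71.1 CPM in the other 4, against 38.2 to 78.3 CPM with Cre-dependent vectors. Each of the 4 was above the other 20 libraries. Ciart, a repressor of the clock, lay at 14.4 to 19.9 CPM in those 4 and at 5.87 to 11.8 CPM in the others (log2 fold change over the group 0.72, SE 0.18, edgeR adjusted p 0.631). Arntl, the activator that peaks opposite to them, had a log2 fold change over the group of -0.25 (SE 0.09, edgeR adjusted p 0.824). It lay at 23.27 to 25.97 CPM in those 4 libraries and at 16.66 to 22.63 CPM in the other Cre-independent ones. Within the group it was thus higher in the same libraries as Dbp and Ciart, while Cre-dependent libraries spanned 20.03 to 34.45 CPM. These genes were named after their values were seen. The labels used here give no time of day for the dissections.

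Low interferon levels were also present in other control groups of the series. By the same measure, scaled over all 87 libraries, the lowest library was at 0.96 in F_D1-D2-control, 4.71 in F_D1-control and 4.26 in F_D2-control. The 12 female libraries with Cre-independent vectors and the Fosb guide spanned 4.28 to 6.91. Among male controls the lowest were 2.28 of 7 with Cre-independent vectors, 3.77 of 4 with Cre-dependent vectors in D1-Cre mice and 1.38 of 8 in D2-Cre mice. With Cre-independent vectors and the non-targeted guide the SD was 2.50 in females and 1.46 in males. With the same vectors and the Fosb guide it was 0.73 and 0.68. In the male Cre-dependent controls it was 1.24 in D1-Cre and 1.57 in D2-Cre mice. No group with the Fosb guide, of either vector kind, had a library below 4.28, and the reason was not tested. One Cre-dependent male control group had a library as low as 1.38. That library, 18386, is labelled D2-Cre, but its Sfxn1 was at 93.1 CPM. This is on the D1-Cre side of the midpoint of 78.3 CPM between the lines, so its label is uncertain. Its group also mixes sequencing batches.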

How the data were processed

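The authors deposited 1 table of raw read counts per gene (55487 genes, Ensembl identifiers). Trimming with Trim Galore, alignment with HISAT2, SAMtools, counting with featureCounts of Subread, and DESeq2 1.27 are listed in the submitters' processing notes, as is build mm10. No source used here gives the strand setting, so genes with antisense partners are uncertain. Libraries were stranded and depleted of ribosomal RNA, per the labels' protocols. One column matched no labelled sample and was not used. Gene symbols came from GENCODE for the same build.

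Counts of 24 libraries were filtered (edgeR 4.0.16 filterByExpr, 21545 genes kept), scaled by TMM and fitted with a robust quasi-likelihood model of the 3 groups, and p-values were adjusted by Benjamini-Hochberg over all genes at 0.05. The Cre-dependent level is the mean of its 2 groups. CPM values use TMM library sizes, and log2 CPM a prior count of 2. Spread was tested with limma 3.58.1 on absolute deviations from group means. Both tests were run on simulated data. DESeq2 1.42.0 size factors and Wald test, limma-voom with quality weights, sva 3.50.0 with 3 surrogate variables, no filter, all 87 libraries and each library left out were tried. Groups follow the labels' source names. The highest correlation between 2 of the 24 libraries over log2 CPM was 0.9898, so none was treated as a duplicate. The comparison and the 37 lists were chosen with earlier results of these data known. Genes named by rule were Fosb, Creb1, the 10 largest passing changes and 5 smallest p-values in each direction (mean at least 1 CPM, established symbols), up to 4 passing genes a list and the 2 or 3 most abundant members of each list; others are marked as named after their values were seen. Some of these genes are not reported here. With 8 and 16 libraries of 15844472 to 41546449 counts, the spread between libraries and not depth limits most genes; genes under 10 counts in a library are the exception.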

Additional observations from a re-analysis of the deposited data

Results flagged for a closer look

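Sfxn1, Gm35021, Ttc12 and Dnah6 differed between the 2 Cre-dependent groups, which are labelled with different Cre lines. The fold change of the Cre-independent group, labelled D1-Cre, therefore depends on which of them it is taken against. Against F_D2-control the line changes together with the vector, so such a fold change is not an effect of the vector alone. The log2 differences, F_D1-control minus F_D2-control, were 1.42, 3.54, -1.34 and -2.15 (edgeR adjusted p 0.000341, 0.006, 0.00355 and 0.00832).

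Single libraries lay far from the 7 others of their group in 23 of 393 group comparisons over lists, genes named by rule and library measures (5.85%, where chance flags about 5%). Among Cre-independent libraries, 19762 had the highest meninges and fibroblast level (mean log2 CPM 4.36, group median 2.28) and the lowest Sept4 (log2 CPM 6.34). Library 19727 had the lowest Mt1 (6.43) and library 19754 the lowest Gm35021 (-2.93). In F_D1-control, 17457 had 79.1% of counts in its 10 most abundant genes and 26.8% in small RNA genes. Library 17719 had the highest mitochondrial share (12.8%) and the lowest Sfxn1 (5.73) and Gm35021 (-2.37). Library 16597 had the lowest Cd74 (7.08) and H2-D1 (8.64), 16585 the lowest Sgk1 (6.30) and 19755 the highest Gad2 (9.23). In F_D2-control, 17906 had the lowest oligodendrocyte level (5.63), Adora2a (5.83) and Cd4 (3.23), and the highest Mef2c (8.16). Library 18421 had the highest mitochondrial genome level (7.72), mt-Co1 (13.3) and mt-Nd1 (11.2). Library 17909 had the lowest Dnah6 (0.758), 18433 the lowest Atp5b (9.91) and 18143 the lowest Creb1 (6.07). The immune lists of the Cre-independent group were not among them, since 4 libraries lay at each end.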

How the results depend on the processing

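Without any 1 library the comparison of vector kinds called 0 to 1 genes: Gm37111 without 16760, Gm35021 without 19754 and Sfxn1 without 17719 (log2 fold changes of Gm35021 and Sfxn1 then 2.18 and 0.69). It called 8 genes by DESeq2's Wald test, 2 by limma-voom with quality weights (Ttc12 at -1.07), 3 with all libraries of the series (Sfxn1 at 0.71) and 1, Sfxn1, without 17719 and 17909; the cause was not tested. Within D1-Cre mice the count was 1 by DESeq2 and 1 with all libraries (Gm9887), and 0 without any 1 library. Gm9887 lay at 1.46 to 3.82 CPM with Cre-independent vectors, inside the 1.28 to 1004 CPM of Cre-dependent libraries. Against F_D2-control the count was 21 by DESeq2, 88 by limma-voom (14 higher, 74 lower) and 4 to 6 without any 1 library. Between the Cre-dependent groups it was 2 by limma-voom and 4 to 5 without any 1 library. No gene was called between vector kinds without both 16760 and 19755, without the 4 low-immune libraries or without the 2 with Y-linked reads (lowest adjusted p 0.0586, 0.291 and 0.317).

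Genes of wider spread numbered 1704 to 2934 without any 1 library, 18 without the 4 low-immune libraries and 1648 against F_D1-control. Deviations from group medians gave 1827, but 0 to 140 once any Cre-independent library was left out, since in a group split 4 to 4 the median lies in the gap. Narrower genes numbered 7 to 30 without any 1 library (7 without 16760, 11 without 19599, 30 without 16596), 1 by medians, 11 without the libraries with Y-linked reads, 0 without the low-immune ones, 60 against F_D1-control and 11 against F_D2-control. All spread settings were chosen after seeing the data.

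The difference in mitochondrial share ran from -0.0976 (without 19599) to 2.37 percentage points and that of the 10 most abundant genes from -5.74 to 0.00144 (without 17457).

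Of 2492 values for genes named by rule under the alternatives, 2457 were counted as the same and 31 as changed in sign, none of them called. A sign change counted as the same where the gene was not called, its main unadjusted p was at least 0.05 and the shift was under its SE. The 2457 can therefore include small changes of sign around 0. Limma-voom gave -0.65 for Gfap and -0.22 for Slc2a1, and Col1a2 ran from -0.18 (without 19762) to 0.21 (without 19599). With 3 surrogate variables the log2 fold change was -0.14 for Cx3cl1, -0.0794 for Slc1a2, -0.23 for Glul, 0.0387 for Rarres2, -0.0703 for Pdgfra, -0.0976 for Drd1, -0.0639 for Penk, -0.0953 for Adora2a, -0.14 for Adcy5, -0.20 for Slc5a7, -0.082 for Gad1, -0.14 for Mef2c, -0.0656 for Cartpt, -0.22 for Vgf, -0.12 for Prkacb, -0.18 for Atf2, -0.12 for Gabbr1, -0.0602 for Snap25, -0.0358 for Syt1, -0.0244 for Hsp90ab1, 0.0206 for Sgk1, 0.10 for Pcna, 0.00128 for Rpl3, 0.0124 for Rplp1, -0.082 for mt-Nd1, -0.0755 for Tef, -0.0963 for Nr1d2 and 0.0499 for Mdm2. No paired analysis was possible because the groups share no replicate numbers. Placing 16760 and 19755 over genes called without them rested on 1 gene and 0 genes.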

Other observations

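Over the genes at an unadjusted p under 0.05 without the library in question, library 19755 of F_D1-control was nearer to the Cre-independent mean in 1237 of 1597 (77.5%) and library 17910 of F_D2-control in 1315 of 1728 (76.1%). Cre-independent library 16760 was nearer to it in 420 of 1833 (22.9%) and library 19762 in 401 of 3081 (13%), while library 19750 was in 505 of 653 (77.3%). These shares were computed after seeing the data.

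Sfxn1 was also read against the labelled Cre line in the male libraries. Of 22 male libraries labelled D1-Cre, 5 were nearer to the D2-Cre level of the 24 female controls, and of 15 labelled D2-Cre, 4 were nearer to the D1-Cre level (the midpoint on the log scale is 78.3 CPM). In the 26 female libraries with the Fosb guide, 0 lay on the side of the other line.

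TTTC, any 2 bases and TTTC on either strand were in 156 of 1763 promoters (8.85%) of genes of wider spread, and in 122 of 1596 (7.64%) of those that belong to none of the lists, beside 3.91% of all tested promoters. The CREB element TGACGTCA was in 45 of 1763 (2.55%), beside 3.22%.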
